A study of Homo sapiens with 5 samples.

Results

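The genes described here encode the transcription factors that pattern the embryo outside the HOX clusters: the forkhead (FOX), SOX, PAX, T-box (TBX), LIM-homeobox (LHX), NKX, sine oculis homeobox and Iroquois (IRX) families. They were chosen by symbol alone, as protein-coding GENCODE genes whose names follow those family patterns. The pattern took 127 of 20033 protein-coding genes: 52 FOX, 19 SOX, 14 NKX, 13 TBX, 9 PAX, 8 LHX, 6 sine oculis homeobox and 6 IRX genes. For each gene, the called replication origins that overlapped the gene or the 2 kb on either side of its 5′ end were collected, and the same was done for all protein-coding genes. One symbol, FOXL2NB, belongs to a neighbour of FOXL2 that encodes no forkhead factor, and it is counted because it fits the pattern.

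All material came from EJ30, a human bladder carcinoma cell line. In ini-seq 2, nuclei from EJ30 cells synchronised in late G1 phase with mimosine were incubated in a cytosolic extract of proliferating HeLa cells with Br-dUTP, so that newly replicated DNA became heavy/light (HL) while unreplicated DNA stayed light/light (LL). One list of origins came from a 3-hour reaction and one from a 15-minute reaction. SNS-seq, which isolates short nascent strands from the cells, gave a list of peaks for strands of 0.5–2 kb and another for strands of 2–4 kb, with genomic DNA as the input, which was not analysed here. Each condition is represented by 1 deposited list, so no test compares conditions. Shares carry exact Clopper-Pearson 95% intervals, which cover counting error only. An origin's efficiency is HL/(HL + LL). The expression of these genes in EJ30 was not measured here, and a list of intervals does not show whether a gene was active.

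FOX proteins bind DNA through a winged-helix domain and SOX proteins through an HMG box, whereas PAX, LHX, NKX, sine oculis homeobox and IRX factors are homeodomain proteins or carry a paired domain, and TBX factors use the T-box. Many of them specify organs, and most are silent outside their tissue while their CpG-rich promoters stay unmethylated under Polycomb repression. Origins of replication in human cells lie often at CpG islands and near transcription start sites. The members shared such starts. In the 1 kb around the 5′ end their median GC content was 64%, against 59.2% for all protein-coding genes. An island-like start (more than 50% GC, with CpG at over 0.6 of the number that base composition predicts) was present at 101 of 127 members (79.5%) and at 57.9% of all genes. A G-quadruplex (G4) motif, defined as 4 runs of at least 3 G separated by 1 to 7 bases on either strand, lay within the same 1 kb at 94 members (74.0%) and at 55.1% of all genes. The genes were short, with a median length of 6554 bp against 27471 bp.

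The following stretches of sequence show what the origins and the origin-free starts of these genes were made of, with every CpG in capitals. The first pair comes from the 2 origins of highest efficiency at any member, the second pair from the 2 of lowest efficiency, and the third pair from origins that were called at 15 minutes at genes with no origin at 3 hours. The last pair precedes the transcription starts of genes with no ini-seq 2 origin at either time. All are 160 bases, free of annotated UTR, on hg38. The first 6 are given on the plus strand, and the last 2, from RefSeq (GRCh38.p14), along the gene.
NKX2-4: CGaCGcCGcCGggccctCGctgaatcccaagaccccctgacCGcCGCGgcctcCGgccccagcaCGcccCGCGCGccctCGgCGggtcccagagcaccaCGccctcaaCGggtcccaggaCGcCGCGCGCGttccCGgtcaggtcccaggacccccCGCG
FOXF2: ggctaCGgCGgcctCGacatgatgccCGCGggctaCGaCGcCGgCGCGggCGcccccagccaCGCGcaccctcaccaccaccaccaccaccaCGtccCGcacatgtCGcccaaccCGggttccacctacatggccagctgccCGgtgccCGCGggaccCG
FOXA3: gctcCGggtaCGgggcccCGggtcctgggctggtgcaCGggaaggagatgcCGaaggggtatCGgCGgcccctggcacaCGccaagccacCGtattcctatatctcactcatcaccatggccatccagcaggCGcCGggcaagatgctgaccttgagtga
NKX2-3: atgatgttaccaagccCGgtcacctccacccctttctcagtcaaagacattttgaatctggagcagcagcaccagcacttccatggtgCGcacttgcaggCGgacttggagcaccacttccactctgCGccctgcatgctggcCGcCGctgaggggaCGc
FOXI3: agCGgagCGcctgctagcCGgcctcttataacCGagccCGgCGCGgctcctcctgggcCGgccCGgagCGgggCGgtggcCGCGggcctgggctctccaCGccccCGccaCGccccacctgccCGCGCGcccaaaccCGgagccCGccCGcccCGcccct
SOX8: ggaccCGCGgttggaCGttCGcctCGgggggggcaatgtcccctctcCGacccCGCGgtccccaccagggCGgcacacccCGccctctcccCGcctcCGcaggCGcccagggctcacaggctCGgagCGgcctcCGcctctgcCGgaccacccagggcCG
SOX1: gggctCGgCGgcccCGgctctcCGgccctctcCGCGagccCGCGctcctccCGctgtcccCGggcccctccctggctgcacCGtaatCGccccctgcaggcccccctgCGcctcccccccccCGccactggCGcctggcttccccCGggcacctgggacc
TBX20: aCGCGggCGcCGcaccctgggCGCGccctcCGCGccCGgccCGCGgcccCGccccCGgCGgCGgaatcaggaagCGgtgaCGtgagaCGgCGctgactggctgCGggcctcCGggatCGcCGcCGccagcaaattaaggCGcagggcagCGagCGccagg
The NKX2-4 stretch (chr20:21396621-21396780, intronic) lay in an origin of efficiency 0.992 and held 25 CpG. The FOXF2 stretch (chr6:1390671-1390830, coding exon) lay in an origin of efficiency 0.986 and held 21. The FOXA3 stretch (chr19:45872271-45872430, coding exon) came from an origin of efficiency 0.8003 with 11 CpG, and the NKX2-3 stretch (chr10:99533132-99533291, coding exon) from one of 0.801 with 7. The FOXI3 stretch (chr2:88452694-88452853, just upstream of the gene) held 23 CpG at 81.3% GC, and the SOX8 stretch (chr16:980721-980880, upstream) held 18 at 78.1% GC. The promoter of SOX1 (chr13:112066989-112067148, plus strand) held 16 CpG at 81.3% GC, and that of TBX20 (chr7:35254101-35254260, minus strand) held 27 at 78.8% GC. The promoter of TBX10, another gene without an ini-seq 2 origin, held 4 CpG at 65% GC and is not shown, so starts without an origin ranged from poor to rich in CpG. A CpG reads the same on both strands. Over the same 160 bases before the start, the median promoter of the 90 members found in the RefSeq table held 13.5 CpG and 35.6% held a G4 motif, against 7 CpG and 17.9% over all 27305 promoters of that table.

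Most members had an origin, and more of them than of genes at large. At 3 hours 99 of 127 members (78.0%, 95% interval 69.7–84.8%) overlapped at least 1 origin, against 66.4% of all protein-coding genes. At 15 minutes the count was 77 (60.6%, 51.6–69.2%), against 46.9%. A 0.5–2 kb SNS-seq peak was present at 117 members (92.1%, 86.0–96.2%), against 83.8% of all genes, and a 2–4 kb peak at 120 (94.5%, 89.0–97.8%), against 84.6%. In each list the members' interval lay above the share of all genes. When the shares of all genes were weighted to the members' GC groups, they came to 77.9% at 3 hours and 60.4% at 15 minutes, level with the members. When they were weighted to the members' shorter gene lengths instead, they fell to 57.9% and 39.2%.

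The members held 184 different 3-hour origins. With shared origins counted at each gene, the mean was 1.46 per gene, against 1.13 for all protein-coding genes. A single origin was present at 50 members, 2 at 29, and 3 or more at 20 (15.7%, against 9.45% of all genes). The most were found at TBX1 with 7, LHX2 with 6 and FOXN1 with 5, followed by 8 genes with 4, namely FOXK1, FOXN3, FOXO6, IRX4, LHX1, PAX2, PAX7 and TBX2. By bases, LHX3 led with 7100 bp, followed by TBX1 with 7098, SIX5 with 6352, IRX4 with 5600, PAX2 with 5500 and FOXO6 with 5000 bp. Origins covered 3.09% of the joined member regions at 3 hours and 1.48% of the regions of all genes. At 15 minutes the covered shares were 1.48% and 0.555%. For the SNS-seq peaks they were 8.14% against 3.79% in the shorter fraction and 13.5% against 7.03% in the longer one. The covered share was higher at the members in all 4 lists, and the member genes were shorter and richer in GC.

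At the 5′ ends themselves the ini-seq 2 and SNS-seq lists differed. At 3 hours 55 of 127 member 5′ ends (43.3%, 34.5–52.4%) lay inside an origin, which was no more than the 42.5% of all protein-coding genes. At 15 minutes 37 did (29.1%, 21.4–37.9%), against 26.7%. By contrast, 89 (70.1%, 61.3–77.9%) lay inside a 0.5–2 kb SNS-seq peak, against 47.8%, and 111 (87.4%, 80.3–92.6%) inside a 2–4 kb peak, against 63.5%. A further 27 members (21.3%) had the nearest 3-hour origin within 1 kb of the 5′ end without covering it, against 12.8% of all genes. Of these 27, 21 lay on the side of the gene, as did 2124 of the 2569 at all genes. Inside or within 1 kb, the count reached 82 (64.6%, 55.6–72.8%), against 55.4% of all genes.

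**Figure D1:**
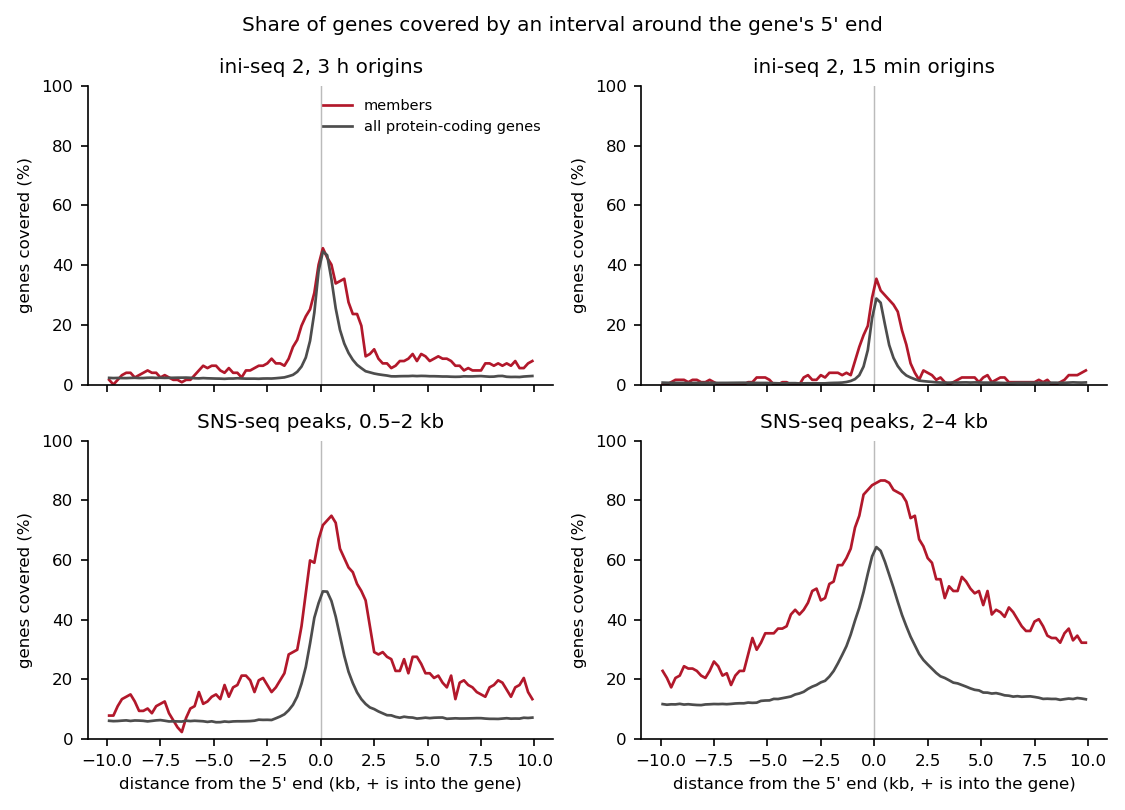
Share of genes (%) covered by an interval at each distance from the 5′ end (kb, positive into the gene), for the 127 members (red) and all 20033 protein-coding genes (grey), in 200 bp bins, 1 panel per list. The ini-seq 2 curves peak at the same height or slightly above at the 5′ end and are broader for the members, whereas both SNS-seq curves lie higher for the members over the 10 kb on either side, except at 2 bins of the shorter fraction upstream.

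The profile along the genes showed the same spread. At 1.1 kb into the gene, 35.4% of members but 13.7% of all genes were covered by a 3-hour origin, while the highest values, just inside the 5′ end, were 45.7% and 44.5%. The 15-minute origins covered 24.4% of members and 6.19% of all genes at the same 1.1 kb. The 2–4 kb SNS-seq peaks still covered 44.9% of members at 5.1 kb into the gene, against 15.6% of all genes.

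Since GC content differed, the 5′ ends were also compared within groups of equal GC. In every group above 60% GC, a smaller share of member starts than of all starts lay inside a 3-hour origin. Between 60 and 65% GC it was 14 of 29 (48.3%, 29.4–67.5%) against 66.3% of all genes. Between 65 and 70% it was 17 of 26 (65.4%, 44.3–82.8%) against 85.4%. Between 70 and 75% it was 14 of 20 (70%, 45.7–88.1%) against 88.0%, and above 75% it was 6 of 11 (54.5%, 23.4–83.3%) against 84.3%. The 15-minute lists ran the same way, with 11 of 26 starts (42.3%) against 65.2% between 65 and 70% GC and 13 of 20 (65%) against 90.9% between 70 and 75%. Weighted to the members' GC groups, the share of all gene starts inside a 3-hour origin was 58.9%, above the members' 43.3% and above its interval. At 15 minutes the weighted share was 42.2%, against 29.1%.

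In the SNS-seq lists the members were mostly at or above all genes. Between 65 and 75% GC all 46 member starts lay inside peaks of both fractions, and above 75% all 11 lay inside a 2–4 kb peak. In the 0.5–2 kb fraction, however, 9 of these 11 did (81.8%, 48.2–97.7%), against 90.1% of all starts above 75% GC. The weighted shares of all genes were 63.7% for the 0.5–2 kb peaks and 78.2% for the 2–4 kb peaks, below the members' 70.1% and 87.4%. Of the 89 member starts that lay inside peaks of both SNS-seq fractions, 50 were inside a 3-hour origin (56.2%, 45.3–66.7%), against 73.6% of the 9461 such starts among all genes.

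**Figure D2:**
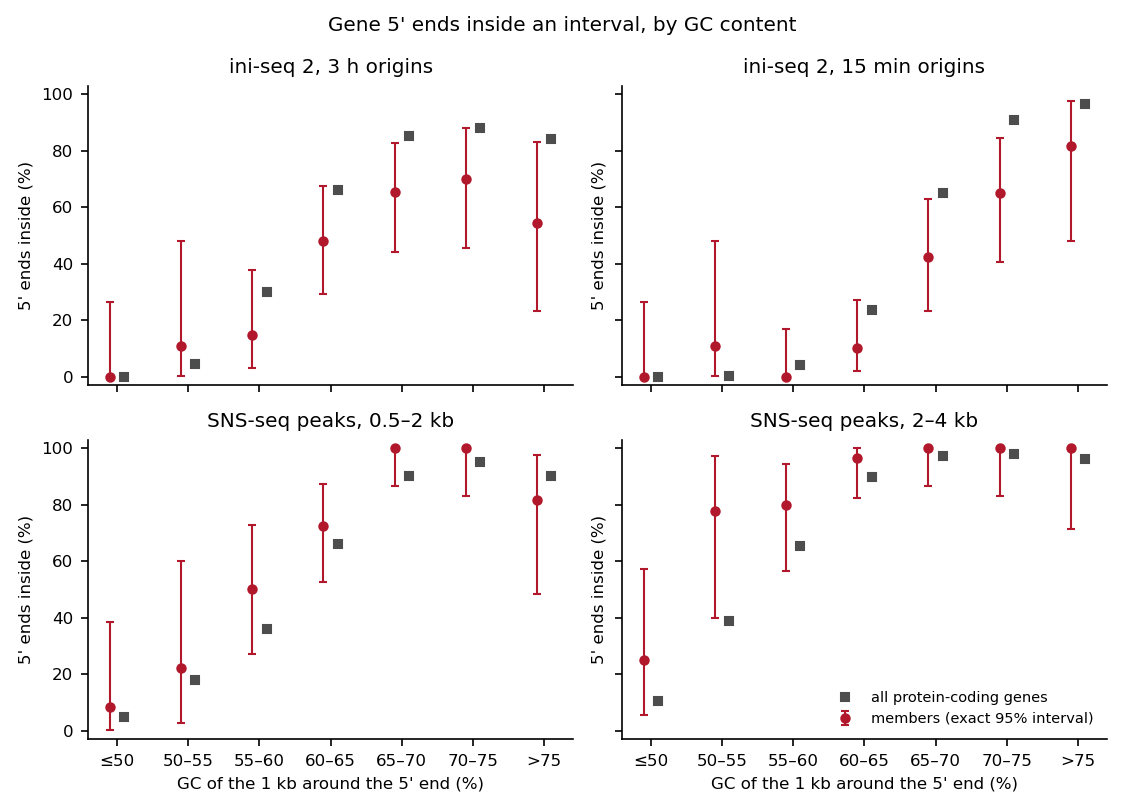
Share of gene 5′ ends inside an interval (%) by GC content of the 1 kb around the 5′ end (%), 1 panel per list. Red points are members with exact 95% intervals and grey squares are all protein-coding genes. Above 55% GC the red points lie below the squares in both ini-seq 2 panels, and above them in the 2–4 kb SNS-seq panel.

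The outermost start of a GENCODE gene is not always the start in main use: at 39 members and at 53.7% of all genes the canonical transcript began elsewhere. With canonical starts, 51.2% of members and 50.9% of all genes lay inside a 3-hour origin, and the GC-weighted share of all genes was 64.2%. Among island-like canonical starts the shares were 57.0% of members and 72.2% of all genes. The counts by family below use the outermost starts, and canonical starts were not counted family by family.

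The same was seen over whole GC-rich stretches rather than at starts. Of the 1 kb windows within 5 kb of a 5′ end, 370 at members exceeded 60% GC, which was 2.91 windows per gene against 0.990 at genes at large. A 3-hour origin overlapped 65.9% of them (60.9–70.8%) against 72.0% of such windows at all genes. Between 70 and 75% GC it overlapped 49 of 62 (79.03%, 66.8–88.3%) against 90.1%, and above 75% it overlapped 11 of 16 (68.8%, 41.3–89.0%) against 90.0%. The 2–4 kb SNS-seq peaks overlapped 98.1% of the GC-rich windows at members and 95.3% at all genes. Windows next to each other share an origin, so these counts are not independent.

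Where an interval did cover a member's 5′ end, it was long. The 55 such 3-hour origins had a median length of 1600 bp (quartiles 850 and 2300 bp), against 1000 bp (700 and 1500 bp) at all genes. The 37 at 15 minutes had a median of 1200 bp against 800 bp. The SNS-seq peaks over the 5′ end measured 2016 bp against 1479 bp in the shorter fraction and 3974 bp against 2293 bp in the longer one. Origins of 3 kb or more made up 12 of the 184 (6.52%), against 3.498% at all genes. The longest, of 6800 bp and efficiency 0.895, covered 98.2% of the region of SIX5, a gene beside the myotonic dystrophy locus. SOX18, which acts in blood and lymphatic vessels, lay entirely inside an origin of 5100 bp, and IRX5 had one of 5200 bp over its 5′ end. The greater length was also seen at fixed GC between 70 and 75%, with medians of 2200 and 1400 bp at 3 hours, but not between 65 and 70%, with 1000 and 1100 bp.

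**Figure D3:**
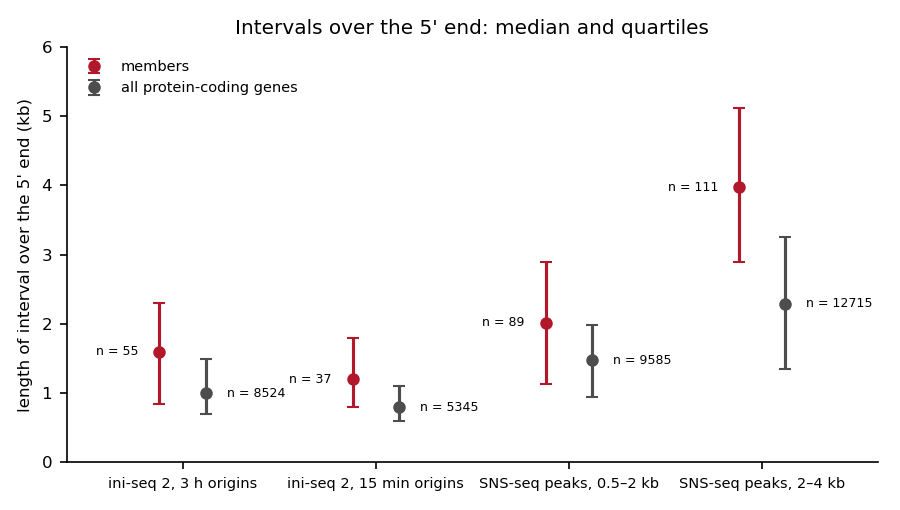
Length (kb) of the interval over the gene's 5′ end in each of the 4 lists, for members (red) and all protein-coding genes (grey). Points are medians, bars run from the lower to the upper quartile, and n is the number of 5′ ends covered; each member median lies above that of all genes.

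The origins sat in the bodies of these genes as much as at their starts. Counting each gene with each of its origins, 55 of 185 pairs (29.7%, 23.2–36.9%) covered the 5′ end, against 37.5% over all genes. Each pair was placed in a single class, with cover of either gene end taken before coding exons. Pairs over a coding exon that covered neither end numbered 66 (35.7%, 28.8–43.0%), against 26.9%. Origins over an end that also reached a coding exon are not among them. Another 34 (18.4%) were intronic, against 21.4%. Origins beside the gene, within 2 kb of the 5′ end, made up 15 (8.11%, 4.61–13.0%), against 3.90%. At 15 minutes, too, fewer origins covered the 5′ end (36.6% against 48.1%) and more lay beside the gene (14.9%, 8.56–23.3%, against 4.77%).

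The efficiency of the 3-hour origins was close to that of genes at large. Its median was 0.889 (quartiles 0.851 and 0.929) at the members and 0.882 (0.833 and 0.929) over the 19185 origins at all genes. When all 3-hour origins were divided by efficiency into 3 classes of equal size, 72 of the 184 (39.1%) were of high, 75 (40.8%) of medium and 37 (20.1%, 14.6–26.6%) of low efficiency. At all genes the shares were 37.4, 32.5 and 30.0%. Low-efficiency origins were thus fewer at the members. At the 5′ ends alone the order was the other way, with a median of 0.9001 at members and 0.915 at all genes.

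Of the 184 origins, 88 (47.8%, 40.4–55.3%) were also called at 15 minutes, against 46.0% at all genes. Within classes the share was 55 of 72 (76.4%, 64.9–85.6%) for high-efficiency origins, where it was 87.0% at all genes. It was 30 of 75 (40%) for medium and 3 of 37 (8.11%) for low efficiency, against 36.3 and 5.52%. The early calling of high-efficiency origins was lower at the members than at genes at large, and the interval of the share lay below the value for all genes.

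**Figure D4:**
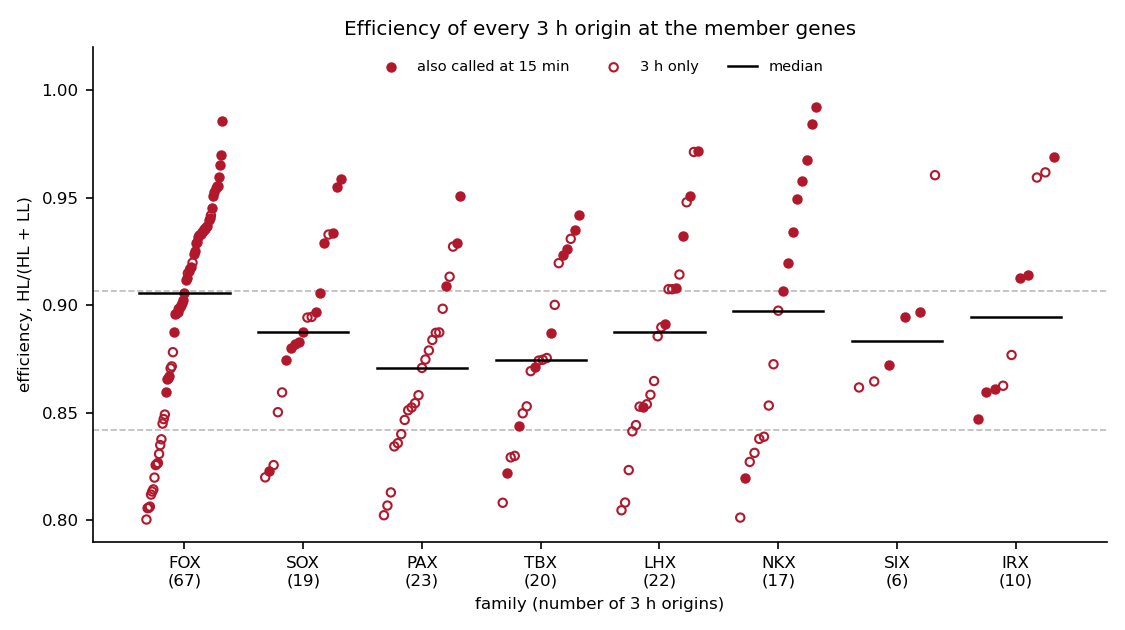
Efficiency, HL/(HL + LL), of every 3-hour origin at the members, by family, with the number of origins in brackets. Filled points were also called at 15 minutes, open points at 3 hours only; black lines are family medians and dashed lines the limits of the efficiency classes, at 0.842 and 0.907. FOX has the highest median, 0.905, and PAX the lowest, 0.871.

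The 15-minute origins of the members were less fully taken up by the 3-hour list. Of 100 origins called at 15 minutes, 22 (22.0%, 14.3–31.4%) had less than 50% of their length inside a 3-hour origin, against 7.25% of the 9309 at all genes. Summed over bases, 78.7% of the early origins' length was covered at members and 91.5% at all genes. Where an early and a late origin overlapped, the late one was the shorter in 18 of 94 pairs (19.1%), against 8.55% at all genes. An early origin over 2 late ones was counted in each pair, as at FOXD1, FOXD2 and FOXF2. The late origins of FOXD2, of 1700 and 600 bp, each counted as shorter than the early one of 2300 bp. At FOXD3, which acts in the neural crest, an early origin of 2000 bp overlapped a late origin of 800 bp. At FOXQ1 the lengths were 2100 and 1000 bp, at FOXE1, needed for the thyroid, 1800 and 900 bp, and at NKX2-4 1500 and 600 bp. At FOXF2 1 early origin of 1400 bp overlapped 2 late origins of 600 and 500 bp. These early origins were very rich in GC, between 72.7% at FOXD3 and 76.4% at FOXF2. Over all early origins the median GC was 74.02% at members and 74.2% at all genes.

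Of the 100 early origins, 9 (9%, 4.2–16.4%) overlapped no 3-hour origin, against 4.54% at all genes. The one at LHX8 ended directly beside a 3-hour origin, without a gap. The 9 included origins at FOXI3, SOX8, SOX11, FOXP1, IRX1, LHX8, NKX1-1 and NKX1-2, and each of the 9 overlapped SNS-seq peaks of both fractions. Such overlap was common at members. Of their 184 3-hour origins, 91.8% overlapped a peak of the shorter fraction and 97.8% one of the longer. Every member window above 70% GC overlapped peaks of both fractions, so this overlap does not set the 9 apart. The GC content of the 9 ran from 70% at SOX11 to 80.8% at FOXI3, and their Z-scores, which scale the efficiency over all 15-minute origins, from −1.64 at IRX1 to 1.46 at FOXP1. For 3 genes, FOXI3 and SOX8 among them, it was their sole ini-seq 2 origin. FOXI3, which acts in ectodermal placodes, had 1 of 500 bp over its 5′ end, with a Z-score of 1.39. SOX8, a relative of SOX9 and SOX10, had 1 of 1000 bp upstream of the gene, centred at −969.5 bp from the 5′ end. Over all genes, 226 of 20033 (1.13%) had a 15-minute but no 3-hour origin.

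The FOX genes, 52 in number, held 67 of the origins at 3 hours. An origin was present at 39 (75%, 61.1–86.0%), against 66.4% of all protein-coding genes. It covered the 5′ end of 29 (55.8%, 41.3–69.5%), against 42.5%. Both intervals include the shares of all genes. The 13 FOX genes without a 3-hour origin included FOXD4 and its 5 FOXD4-like copies and FOXO3B. These 7 genes are nearly identical to other genes, and since only uniquely aligned reads were kept, the lack of a call there cannot be read as a lack of an origin. Without them, 99 of the other 120 members had a 3-hour origin. Both FOXC genes, which act in mesoderm and the eye, had high-efficiency origins over the 5′ end: 3000 bp at 0.970 for FOXC1 and 2100 bp at 0.945 for FOXC2. All 3 FOXA genes, the pioneer factors of liver and gut, had origins at both times. FOXA1 and FOXA2 had theirs a little inside the gene, 359 and 255 bp beyond the 5′ end. FOXM1, a driver of the cell cycle that dividing cells need, had 1 origin of 1000 bp at 0.933 over its start. All 4 FOXN genes had an origin over the 5′ end, with efficiencies of 0.965 at FOXN3, 0.955 at FOXN2, 0.887 at FOXN4 and 0.831 at FOXN1, the factor of the thymic epithelium. FOXN1 had 5 origins at 3 hours, none of them called at 15 minutes.

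At the SOX genes, few origins covered the start, although several lay close to it. Of 19 genes, 13 had a 3-hour origin (68.4%, 43.4–87.4%) but 4 had one over the 5′ end (21.1%, 6.05–45.6%), while 18 starts lay inside a 2–4 kb SNS-seq peak. Both 3-hour intervals include the shares of all protein-coding genes, 66.4% for the gene and 42.5% for the start. Of all starts, 63.5% lay inside a 2–4 kb peak. The 4 with an origin over the 5′ end were SOX9, a factor of cartilage and testis (0.883), SOX12 (0.897), SOX13 (0.882) and SOX18 (0.823). In 6 others the nearest 3-hour origin lay within 1 kb of the 5′ end, from 17 bp at SOX11 to 766 bp at SOX17. SOX1, SOX2 and SOX3, which keep neural progenitors undifferentiated, had no origin at either time, and neither did SOX14 or SOX7. All 5 had their 5′ ends inside peaks of both SNS-seq fractions. The 5′ end of SOX2 had 58.9% GC and that of SOX1 73.4%. The nearest 3-hour origin was 5152 bp from the 5′ end of SOX1, 109090 bp from SOX7, 350586 bp from SOX14, 572169 bp from SOX3 and 798725 bp from SOX2. SOX4, widely active in progenitors, had 1 origin of 1400 bp at 0.955, beginning 550 bp inside the gene.

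At the outermost 5′ ends, the PAX genes showed the widest gap between gene and start, which may differ at canonical starts. Of 9 genes, 8 had a 3-hour origin (88.9%, 51.8–99.7%), against 66.4% of all protein-coding genes. Only PAX8 (0.871) had one over the 5′ end, and none had one there at 15 minutes. With so few genes, the interval of that 3-hour start share (11.1%, 0.281–48.2%) includes the 42.5% of all protein-coding genes. All 9 starts lay inside a 2–4 kb SNS-seq peak. PAX6, which directs eye formation, had 3 origins, all over annotated UTR and none over a coding exon. Their centres lay from 4960 to 7610 bp beyond the outermost 5′ end, at efficiencies of 0.898, 0.913 and 0.951. PAX2, which acts in the kidney, had 4, the first centred 4354 bp inside, at 0.840, and the most efficient 92154 bp inside, at 0.927. PAX4, a factor of pancreatic islets, had no origin at either time, with a start of 51.3% GC and an observed/expected CpG ratio of 0.0616.

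The TBX genes ranged from the most to the fewest origins. TBX1, the T-box gene of the pharyngeal arches, had 7 origins at 3 hours, the most of any member, with 7098 bp of its region covered. Their efficiencies ran from 0.808 to 0.926, and 1, of 800 bp at 0.887, covered the 5′ end. TBX2 had 4 origins, the one over its start at 0.942. The lowest efficiency over a T-box start was 0.871, at TBX3, which acts in limb and heart. TBX10, TBX19, TBX20 and TBX22 had none at either time. The 5′ end of TBX20, a heart factor, had 67.1% GC and lay 4001 bp from the nearest origin, while TBX22, which acts in the palate, had no interval in any list and its nearest 3-hour origin was 4172748 bp away.

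All 8 LHX genes had a 3-hour origin (interval 63.1–100%), against 66.4% of all protein-coding genes. The 5′ end was covered at 4 (50%, 15.7–84.3%), against 42.5%. Both intervals include the shares of all genes. LHX2, needed for the eye and forebrain, had 6 origins, none over the outermost start but 1 upstream, centred at −1319.5 bp, at 0.932 and 5 from 9830 to 16580 bp inside the gene. LHX3, a pituitary factor, had 2 long origins of 3500 and 3600 bp, which together covered 65.3% of its region, at 0.858 and 0.853. LHX4, also a pituitary factor, had an origin of 2300 bp at 0.951 over its start. LHX5, by contrast, had one of 1800 bp at 0.805, and none of its 3 origins was called at 15 minutes. LHX1 had 4, among them 1 at 0.971 centred 5766 bp inside the gene.

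Of the 14 NKX genes, 12 had a 3-hour origin (85.7%, 57.2–98.2%), against 66.4% of all protein-coding genes. The 5′ end was covered at 5 (35.7%, 12.8–64.9%), against 42.5%. Both intervals include the shares of all genes. The most efficient origin at any member was at NKX2-4, with 600 bp at 0.992, centred 826 bp inside the gene. NKX2-5, a heart factor, had 1 of 500 bp at 0.949 beginning 11 bp from its start. NKX2-1, which specifies thyroid and lung, had 2 origins, and neither these nor those of its neighbour NKX2-8 were called at 15 minutes. NKX2-3 had 1 origin of 600 bp over its start at 0.801, and NKX6-1, a factor of beta cells, had 0.831 at its start and 0.967 inside the gene. NKX2-6 and NKX6-3 had none.

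Among the 6 sine oculis homeobox genes, 4 had a 3-hour origin (66.7%, 22.3–95.7%), against 66.4% of all protein-coding genes. SIX2 (0.872) and SIX5 (0.895) had one over the 5′ end (33.3%, 4.33–77.7%), against 42.5% of all starts. SIX3, a factor of the eye and forebrain, had none at either time, although its 5′ end lay inside peaks of both SNS-seq fractions and the nearest 3-hour origin was 2202 bp away. All 6 IRX genes had a 3-hour origin (interval 54.1–100%), against 66.4% of all protein-coding genes. At 15 minutes 5 had one over the 5′ end (83.3%, 35.9–99.6%), against 26.7% of all starts. The IRX starts had the highest median GC of the families, 71.2%. Of all starts between 70 and 75% GC, 90.9% lay inside a 15-minute origin. IRX4, a heart factor, had 4 origins over 5600 bp, IRX3 had 1 of 3600 bp at 0.912, and IRX5 had 1 of 5200 bp at 0.861. IRX1 and IRX2 had 15-minute origins over the 5′ end but no 3-hour origin over it. At IRX2 the nearest 3-hour origin ended 24 bp from the 5′ end, and at IRX1 the nearest began 4569 bp inside the gene.

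**Figure D5:**
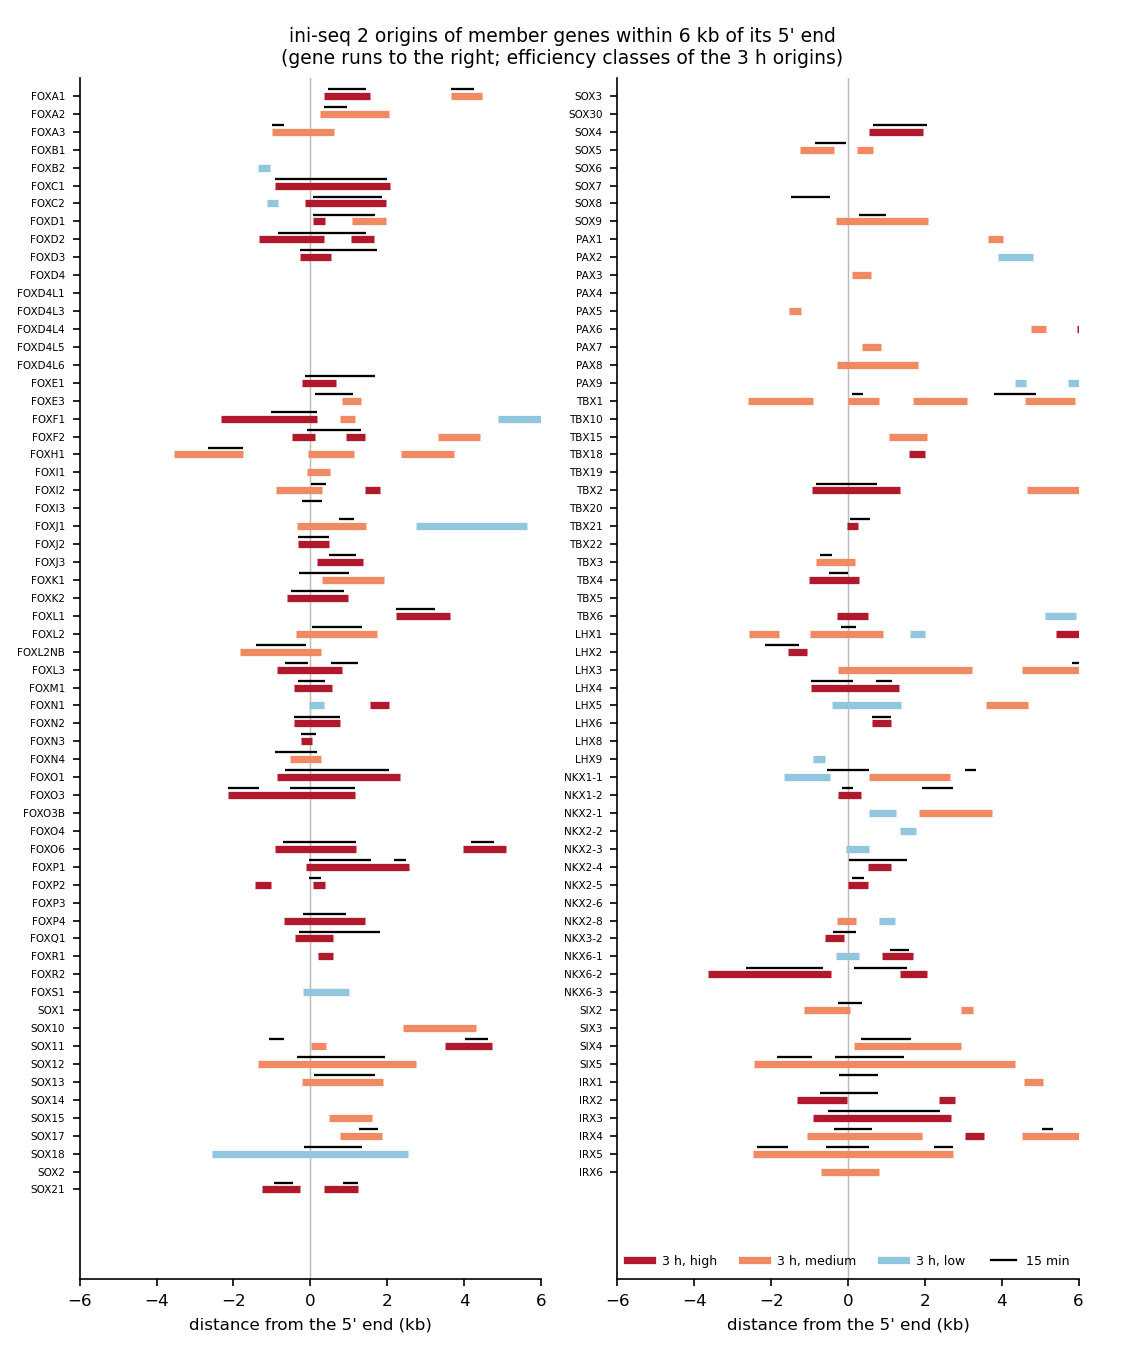
The ini-seq 2 origins of the members named on the axis, within 6 kb of the gene's 5′ end (x axis, kb, positive into the gene), with genes ordered by family. Thick bars are 3-hour origins coloured by efficiency class and thin black lines 15-minute origins; parts beyond 6 kb are not drawn. FOX and IRX bars cluster on the zero line, whereas SOX and PAX bars lie mostly to its right.

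Where an origin covered the 5′ end, 27 of 55 were of high and 6 of low efficiency. This was no excess of high efficiency, since the median over the starts of all genes, 0.915, itself lay above the limit of the high class, 0.907. Among the highest were those of FOXC1, FOXN3 (300 bp), FOXD2 (0.960, 1700 bp), NKX1-2 (0.958, 600 bp), FOXE1 (0.956, 900 bp), FOXN2 (1200 bp), FOXK2 (0.954, 1600 bp), FOXO1 (0.953, 3200 bp), and FOXJ2 and LHX4, both at 0.951. All of these origins overlapped a 15-minute origin. Those of low efficiency were those of FOXN1, FOXS1 (0.806), LHX5, NKX2-3, NKX6-1 and SOX18. Only that of SOX18 overlapped a 15-minute origin.

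In all, 28 members had no 3-hour origin. Besides the 7 near-identical genes, they included FOXB1, FOXI3, FOXO4, FOXP3, FOXR2, NKX2-6, NKX6-3, PAX4, SIX3, SOX1, SOX2, SOX3, SOX7, SOX8, SOX14, TBX10, TBX19, TBX20 and TBX22. Of the 21 genes other than the near-identical ones, the 5′ ends of 15 lay inside a 2–4 kb SNS-seq peak. Over all protein-coding genes, with or without an origin, the share was 63.5%. An island-like start was present at 16 of the 28, the near-identical FOXD4, FOXD4L3, FOXD4L4 and FOXO3B among them. Of all members with such a start 84.2% had a 3-hour origin, against 83.3% of all genes with one. The nearest 3-hour origin lay within 10 kb of the 5′ end at 7 of the 28 and more than 100 kb away at 16. No interval of any list was found at FOXR2, TBX22 and the 5 FOXD4-like genes. FOXO4, FOXP3, FOXR2, SOX3 and TBX22 are the 5 members on chromosome X, and none of them had an ini-seq 2 origin. Of 5, a count of 0 allows a share of up to 52.2% (exact upper limit). At 859 protein-coding genes of that chromosome 28.4% had a 3-hour origin, against 68.3% on the autosomes.

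The members lay in surroundings with few other origins. Within 500 kb on either side of the 5′ end, and outside the gene's own region, the median was 7 origins (quartiles 4 and 17), against 10 (4 and 27) for all genes and 18 for the 39 HOX genes. Only the gene's own origins were left out, so the 18 includes origins at neighbouring HOX genes. No other origin lay within 500 kb at 12 members (9.45%), against 5.01% of all genes. The 12 include the near-identical FOXD4L4, FOXD4L5 and FOXD4L6, where calls may be missing for lack of unique reads. SOX2 and SOX3 were also among the 12, as were FOXJ2, FOXP2, SOX5, TBX15 and TBX18, which had origins of their own.

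Several neighbourhoods held 3 or 4 members with gaps of at most 1 Mb. In the FOXF1, FOXC2 and FOXL1 cluster (chr16:86508527-86583478), 6 of the 7 origins of 3 hours lay at the genes. In that of FOXQ1, FOXF2 and FOXC1 (chr6:1310098-1613897) there were 15 origins over 303.8 kb, 5 of them at the genes and 8 of high efficiency. At the 5p Iroquois cluster of IRX4, IRX2 and IRX1 (chr5:1877413-3601403), 7 of 30 origins lay at the genes and 14 of the 30 were of low efficiency. At IRX3, IRX5 and IRX6 (chr16:54283304-55330756), 3 of 8 lay at the genes. At NKX2-4, NKX2-2, PAX1 and FOXA2 (chr20:21395365-22587455), 5 of 8 did, and at NKX2-1, NKX2-8, PAX9 and FOXA1 (chr14:36516392-37598059), 8 of 12. The neighbourhood of LHX5, TBX5 and TBX3 (chr12:113462033-114686175) had 16 origins, 5 at the genes, and 1 of the 16 was called at 15 minutes.

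HOX genes, the other large group of developmental regulators, resembled the members in some of these measures. A 3-hour origin was present at 32 of 39 (82.1%, 66.5–92.5%) and covered 15 of their 5′ ends (38.5%, 23.4–55.4%), while 33 starts lay inside a 2–4 kb SNS-seq peak (84.6%). The intervals of the 2 groups overlapped in each measure. Among the 87 cytosolic ribosomal protein genes, which are highly transcribed in all cells, 39.1% of starts lay inside a 3-hour origin and 60.9% inside a 2–4 kb SNS-seq peak. Of their 27 starts inside peaks of both SNS-seq fractions, 23 lay inside a 3-hour origin (85.2%, 66.3–95.8%), against 56.2% of the members' 89. The same share was 13 of 21 (61.9%, 38.4–81.9%) at the HOX genes and 40 of 71 (56.3%, 44.05–68.1%) at the zinc finger (ZNF) genes of chromosome 19, close to that of the members. At 15 minutes it was 29.6% (13.8–50.2%) at the ribosomal protein genes, 28.6% (11.3–52.2%) at the HOX genes and 19.7% (11.2–30.9%) at the ZNF genes. The members' share was 39.3% (29.1–50.3%), below the 52.9% of all protein-coding genes. Neighbouring members share origins, and the lists of genes differ in GC content and length, so these shares stand side by side without a test.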

How the data were processed

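The 4 lists of intervals on hg38 that were analysed came from EJ30 cells, 1 per condition. For the alignment the authors used Bowtie2, and reads with several matches and PCR duplicates were discarded. Origins were called by the authors from HL and LL reads in small windows, scaled to library totals. The deposited 3-hour column, although headed as a Z-score, holds the efficiency as a fraction, HL/(HL + LL), from 0.8 to 1, with biological replicates pooled. The deposited 15-minute list gives a score, the Z-score of the efficiency over that list. The SNS-seq peaks were called by the authors with MACS2 against genomic DNA and carry no value. Read depths per library are unknown from these lists, and a region without a call may be one without unique reads. The number of replicates behind the 15-minute and SNS-seq lists is not given in the sources used here.

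Protein-coding genes, transcripts and 5′ ends were taken from GENCODE 44. SNS-seq starts were read as 0-based. An overlap of 1 bp counted. The lists, with 23905, 10181, 147529 and 184832 intervals on the main chromosomes, were compared in Python 3.11.15 with pandas 2.3.3 and scipy 1.17.1, and the overlap counts were checked on simulated data against bedtools. GC content, CpG and G4 motifs were read from hg38. Genes were named by a rule: those without origins, those called at 15 minutes alone, those with most origins or covered bases, those with the highest or a low efficiency at the 5′ end, the extremes of each family and the neighbourhoods. Other genes named as examples were chosen after their values were seen, as were the sequences shown other than by efficiency. The members, lists and rules were chosen with earlier results of these data known. The shares of all genes weighted by GC or length, the canonical starts, the omission of FOXL2NB and some combinations of lists and settings were added after the values were seen. The results of some members are not reported here by name, and these members stay in every count.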

Additional observations from a re-analysis of the deposited data

How the results depend on the processing

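Of 99 alternative values, 72 kept the side of the value for all protein-coding genes and stayed within the main interval, 12 moved and 15 changed sides. For the covered share the main interval was a band from 2.06 to 4.64%, and for origins per gene from 0.971 to 2.19. Both bands were set by a fixed factor around the main value and are not confidence intervals. Where all genes were weighted by GC or length, the member value was the main value itself. Such alternatives could change sides but could not leave the interval. With 1 list per condition, no replicate could be left out, and no paired analysis was possible because the lists carry no replicates. The higher shares of members with an interval kept their direction under every alternative tried, but with GC weighting the ini-seq 2 shares were level. They were 78.0% against 77.9% at 3 hours and 60.6% against 60.4% at 15 minutes. With island-like starts alone, 84.2% of members and 83.3% of all genes had a 3-hour origin. The start shares in the ini-seq 2 lists, close to those of all genes, did not keep their direction. Starts inside a 3-hour origin were fewer than among all genes with 1 gene per locus (40.9% against 42.5%), island-like starts (49.5% against 66.7%), efficiency of at least 0.9 (22.8% against 25.8%), any coding transcript (55.1% against 55.4%) and GC weighting (43.3% against 58.9%). For 15-minute starts this held with island-like starts (36.6% against 45.0%), any coding transcript (36.2% against 38.3%), canonical transcripts (33.1% against 34.2%) and GC weighting (29.1% against 42.2%). The share of 3-hour origins also called at 15 minutes fell below that of all genes within 5 kb (44.6% against 45.5%), in the 4 kb around the 5′ end alone (64.5% against 66.5%), at an efficiency of at least 0.9 (76.9% against 84.7%) and with 50% of the early origin covered (39.1% against 44.1%). The median efficiency did so in the 4 kb alone (0.9025 against 0.912) and from 0.9 upwards (0.933 against 0.938).

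In the 4 kb alone, 69.3% of members had a 3-hour origin (57.5% of all), 25.4% of bases were covered (15.4%) and the mean was 0.850 origins per gene (0.609). From an efficiency of 0.9 upwards these were 48.8% (41.3%), 1.33% (0.626%) and 0.622 (0.465). Without the near-identical copies, 96.7% had a 0.5–2 kb and 98.3% a 2–4 kb SNS-seq peak. Among island-like starts, 98.02% of genes had a 2–4 kb peak, and 80.2% and 95.05% of starts lay in the shorter and longer fraction. With any coding transcript, 80.3% of starts lay in a 0.5–2 kb peak. Why these values moved was not tested. Without counts, the lists cannot show how depth bounds a missing call.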
